A study of Arabidopsis thaliana with 10 samples.

Results

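GID1A, GID1B and GID1C are the 3 gibberellin receptor genes of Arabidopsis thaliana, and their transcripts were followed across all 10 arrays of a study on the cytochrome P450 KLU (CYP78A5). They were taken by name: the gene table of the Affymetrix ATH1 array assigns 1 probe set to each of them alone. They are 3 of the 13350 genes that the table names singly, and 22746 probe sets were tested in all. GID1A (AT3G05120) was read by 259302_at and GID1B (AT3G63010) by 251200_at, and both genes lie on chromosome 3. GID1C (AT5G27320) was read by 246782_at and lies on chromosome 5.

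Gibberellin is a growth hormone that enters the GID1 receptor and closes a lid over the pocket, and the closed receptor then binds DELLA proteins, the repressors of gibberellin responses. The F-box protein SLY1 brings the bound DELLA protein to destruction, which releases growth of stems, petals and stamens. The receptors act redundantly, and plants that lack all of them are extreme dwarfs that do not set seed. GID1A and GID1C form one branch of the family and GID1B another, and gibberellin is known to lower receptor transcripts, while DELLA proteins raise those of GID1A and GID1B.

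The study asked which transcripts respond to KLU activity. Every plant carried the klu-2 allele and an ethanol switch, in which the 35S promoter, active in most tissues, drives the regulator AlcR, and AlcR with ethanol turns on the AlcA promoter in front of KLU. One group carried wild-type KLU and was sampled before ethanol vapour (0 min) and after 90 and 240 min, and the other carried a mutant KLU protein as a control and was sampled at 90 and 240 min. Lines 3-1 and 4-3 carried wild-type KLU and lines 1-5 and 3-2 mutant KLU. Each of the 5 groups thus holds 2 arrays, 1 per line. Tissue was pooled inflorescences with young buds, and plant age is not given in the labels. No uninduced mutant array was analysed here, so the baseline for mutant KLU is the 0 min arrays of the other construct, and changes from 0 min join the transgene, the vapour and the elapsed time of day.

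The deposited log2 intensities come from RMA, which corrects background, puts arrays on a common scale and summarizes the probes of a set. Array medians lay between 5.93 and 6.05. KLU has no named probe set in the gene table used here, so induction could not be read from KLU itself. The ethanol-responsive gene PDC2, which encodes a pyruvate decarboxylase, lay at 6.65 and 6.21 before vapour and between 7.20 and 9.37 on the 8 induced arrays. Of 9 listed genes of ethanol and fermentation, only ACS also has a named probe set. It lay at 8.26 and 8.23 before vapour and between 8.17 and 8.61 on the induced arrays. Whether the transgene was induced cannot be read from either gene. Of 17 floral marker genes fixed for a check of the tissue, UFO and CLV3 have a named probe set, and their mean lay between 3.25 and 3.75. That of the root markers EXPA7 and PYK10 lay between 3.58 and 3.78, and as probe sets differ in affinity, these levels do not tell which tissue was present. The anther marker A9 lay between 9.64 and 10.82, and A9 is a gene of the tapetum, the tissue that feeds pollen. AMS, the other tapetum gene with a named probe set among 14 listed, lay between 4.11 and 4.95. In bulk tissue, fewer cells that express a receptor and less receptor RNA per cell cannot be told apart.

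None of the receptor transcripts changed past the threshold in any of the 9 comparisons. Each comparison was fitted with limma over all probe sets, with a Benjamini-Hochberg adjusted p under 0.05 as the threshold, and 0 of 27 tests on the receptors passed. The smallest adjusted p of this fit was 0.181, for GID1A with mutant KLU at 240 min against the uninduced lines. Unadjusted p-values of this fit lay under 0.05 in 4 tests, all of them on GID1A. In the comparisons of those tests 5.86% to 10.2% of all probe sets lay under 0.05. The share was 7.76% for mutant KLU at 240 min and 6.60% at 90 min against the uninduced lines. Under some other settings, given below, GID1B also lay under 0.05 with wild-type KLU at 240 min against 0 min. The 95% intervals, which are not adjusted for the number of tests, stayed within 2-fold in either direction in 25 of the 27 tests. At the gene level the data therefore bound the receptor changes more than they order them, and the values follow gene by gene.

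**Figure D1:**
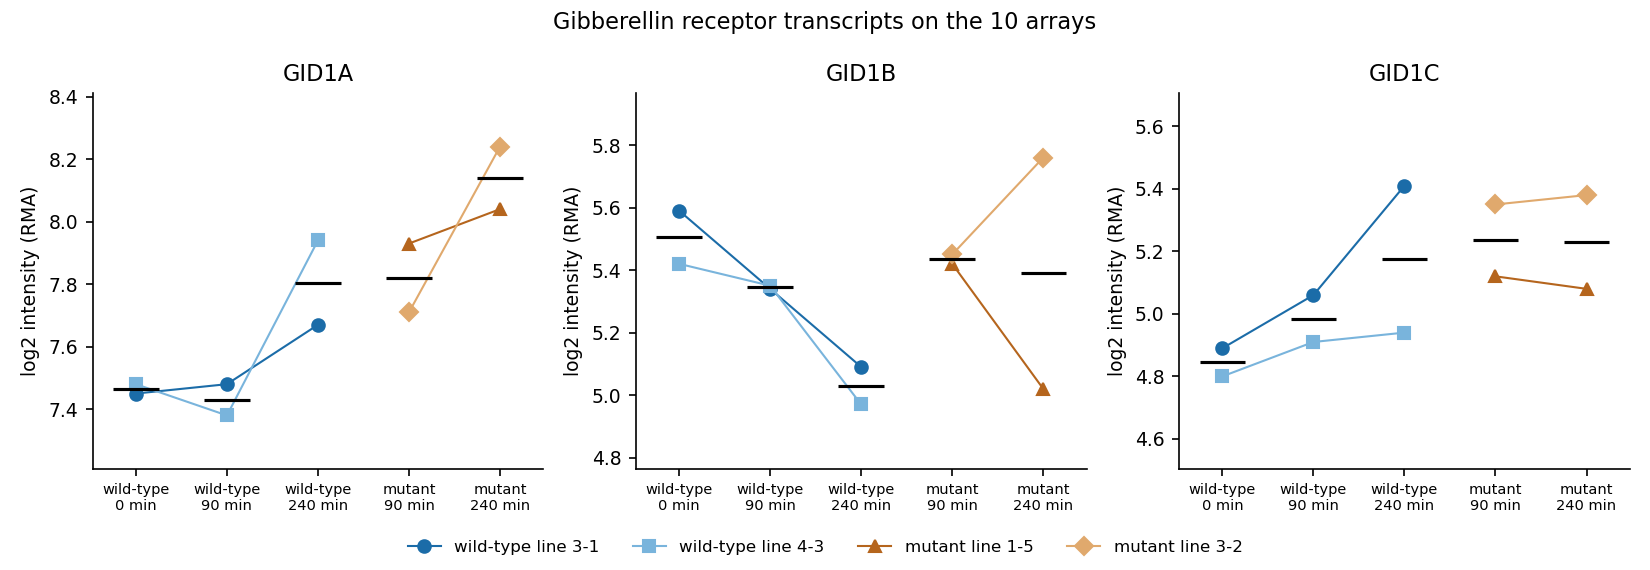
Log2 intensity of GID1A, GID1B and GID1C on each array, by construct and time. Points are single arrays, coloured lines join arrays of 1 plant line, and black bars are means of 2 arrays. The 3 panels span ranges of equal height at different levels. GID1A was highest on the mutant arrays at 240 min (8.04 and 8.24), and GID1B was lowest on the wild-type arrays at 240 min (5.09 and 4.97) and the mutant array of line 1-5 at 240 min (5.02).

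GID1A, the receptor known as a main contributor to stem growth, had a mean level of 7.73 over all arrays, above 77.3% of probe sets. It was 7.45 in line 3-1 and 7.48 in line 4-3 before vapour. With wild-type KLU it was 7.48 and 7.38 at 90 min and 7.67 and 7.94 at 240 min, with line 3-1 first. With mutant KLU it was 7.93 in line 1-5 and 7.71 in line 3-2 at 90 min, and 8.04 and 8.24 at 240 min. All 4 mutant arrays lay above both wild-type KLU arrays of the same time, and each of the 4 lines was higher at 240 than at 90 min. Of all probe sets, 27.7% at 90 min and 41.1% at 240 min had constructs without overlap, in either direction. The share without overlap at both times was not counted. The order of the group means was wild-type KLU at 90 min (7.43 ± 0.07, SD, 2 arrays here and below), uninduced (7.46 ± 0.02), wild-type KLU at 240 min (7.80 ± 0.19), mutant KLU at 90 min (7.82 ± 0.16) and mutant KLU at 240 min (8.14 ± 0.14). Both groups at the low end overlapped, and so did wild-type KLU at 240 min and mutant KLU at 90 min.

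The largest GID1A difference was that of mutant KLU at 240 min from the uninduced lines, with 0.67 on the log2 scale, or 1.60-fold (SE 0.149, 95% interval 0.33 to 1.02, unadjusted p = 0.00225, adjusted p = 0.181 by limma). It ranked 282 of 22746 probe sets by p in that comparison, in which limma called 0.154% of all probe sets. With mutant KLU at 90 min the difference from the uninduced lines was 0.35 (0.01 to 0.70, adjusted p = 0.749), where 0.0396% of probe sets were called. With wild-type KLU the difference from 0 min was -0.04 at 90 min (-0.38 to 0.31, adjusted p = 0.983) and 0.34 at 240 min (-0.01 to 0.69, adjusted p = 0.236), where limma called 1.62% and 6.82% of probe sets. The value of 0.34 was 0.21 without the 240 min array of line 4-3. So the receptor was not among the calls even in the comparison with the most of them.

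Wild-type KLU was lower than mutant KLU in GID1A by a similar amount at both times. The difference was -0.39 at 90 min (95% interval -0.74 to -0.04, unadjusted p = 0.0326, limma's adjusted p = 0.728) and -0.33 at 240 min (-0.68 to 0.01, adjusted p = 0.411). Of all probe sets, 0.00440% and 1.13% were called in these comparisons. The interaction, which tests whether the difference between constructs changed with time, was 0.05 (-0.44 to 0.55, adjusted p = 1). A further comparison, chosen after these values were seen, took the mean of both times for each line. GID1A was then 7.58 and 7.66 in wild-type lines 3-1 and 4-3, and 7.98 and 7.97 in mutant lines 1-5 and 3-2. The difference of 2 lines from 2 was -0.36 (SE 0.108, -0.66 to -0.07, unadjusted p = 0.0257, limma's adjusted p = 0.404). In that fit limma called 0% of all probe sets and 2209 had an unadjusted p under 0.05.

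From 90 to 240 min GID1A differed by 0.19 in line 3-1 and 0.56 in line 4-3 with wild-type KLU, and by 0.11 in line 1-5 and 0.53 in line 3-2 with mutant KLU. The group difference was 0.38 for wild-type KLU (95% interval 0.03 to 0.72, unadjusted p = 0.038, limma's adjusted p = 0.466) and 0.32 for mutant KLU (-0.03 to 0.67, adjusted p = 1). Limma called 0% of all probe sets in either comparison, with 2313 and 490 at an unadjusted p under 0.05. Over both constructs, a comparison also chosen after the values were seen, the difference was 0.35 (SE 0.106, 0.10 to 0.59, unadjusted p = 0.0119, adjusted p = 0.4), and again 0% of probe sets were called, with 2099 at an unadjusted p under 0.05. With the line as a replicate block the interval was 0.08 to 0.62 and the adjusted p 0.28, with 0% called and 3156 at an unadjusted p under 0.05. All 4 lines moved the same way, and the change did not pass the threshold in any of these fits. The share of all probe sets that moved the same way in all 4 lines was not counted.

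GID1B belongs to the other branch of the family, and its protein is known to hold gibberellin more tightly than the other receptors do. Its mean level was 5.34, above 42.2% of probe sets, and the file gives no detection calls, so how far it stands above background is not known. It was 5.59 and 5.42 in lines 3-1 and 4-3 before vapour, and, with wild-type KLU, 5.34 and 5.35 at 90 min, then 5.09 and 4.97 at 240 min. Both wild-type KLU lines were lower at each later time, and the share of all probe sets with such an order was not counted. With mutant KLU it was 5.42 in line 1-5 and 5.45 in line 3-2 at 90 min, and 5.02 and 5.76 at 240 min. The mutant arrays at 240 min lay further apart than any other pair of GID1B values in a group, and 1 of them was near the wild-type KLU arrays of that time. By group mean the order was wild-type KLU at 240 min (5.03 ± 0.08), wild-type KLU at 90 min (5.34 ± 0.01), mutant KLU at 240 min (5.39 ± 0.52), mutant KLU at 90 min (5.44 ± 0.02) and uninduced (5.50 ± 0.12). The first of these groups lay apart from the second, as in 35.2% of all probe sets, and every later pair of neighbours overlapped.

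With wild-type KLU at 240 min against 0 min GID1B differed by -0.47 (SE 0.224, unadjusted p = 0.0683, adjusted p = 0.27 by limma). The lines gave -0.50 and -0.45, so they lay closer to each other than the SE, which also carries the spread of the mutant arrays at 240 min. With the line as a replicate block the SE was 0.185 (unadjusted p = 0.0394, limma's adjusted p = 0.153). From the compared groups alone it was 0.151 (unadjusted p = 0.0293, limma's adjusted p = 0.207). In the main fit 22.1% of all probe sets had an unadjusted p under 0.05 in this comparison. At 90 min against 0 min the difference was -0.16 (adjusted p = 0.915), and from 90 to 240 min it was -0.31 (adjusted p = 0.699). Wild-type differed from mutant KLU in GID1B by -0.09 at 90 min (-0.61 to 0.43) and by -0.36 at 240 min (-0.88 to 0.16), with adjusted p-values of 1 and 0.629. If line 3-2 of mutant KLU at 240 min was left out, the latter difference was 0.01, and if line 1-5 was left out it was -0.73 (limma's adjusted p = 0.263). Mutant KLU differed from the uninduced lines by -0.07 at 90 min and -0.12 at 240 min (adjusted p = 0.995 and 0.965). The mutant value at 240 min turned to 0.26 without the array of line 1-5. From 90 to 240 min with mutant KLU the lines moved apart, by -0.40 in line 1-5 and 0.31 in line 3-2. The interaction for GID1B was -0.27 (-1.01 to 0.47, adjusted p = 1).

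GID1C, which acts with GID1A in stem growth, had a mean level of 5.09, above 39.6% of probe sets. It was 4.89 and 4.80 in lines 3-1 and 4-3 before vapour, and, with wild-type KLU, 5.06 and 4.91 at 90 min, then 5.41 and 4.94 at 240 min. With mutant KLU it was 5.12 in line 1-5 and 5.35 in line 3-2 at 90 min, and 5.08 and 5.38 at 240 min. The uninduced arrays were the lowest of all 10, and 1 wild-type array at 240 min was the highest. The uninduced group (4.84 ± 0.06) and wild-type KLU at 90 min (4.98 ± 0.11) lay apart, as in 34.0% of all probe sets. Above them, wild-type KLU at 240 min (5.18 ± 0.33), mutant KLU at 90 min (5.23 ± 0.16) and mutant KLU at 240 min (5.23 ± 0.21) could not be ordered beyond their spread.

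Against the uninduced lines GID1C differed by 0.14 (wild-type KLU, 90 min), 0.33 (wild-type KLU, 240 min) and 0.39 (mutant KLU, both times). The 95% intervals were -0.31 to 0.59, -0.12 to 0.78, -0.06 to 0.84 and -0.06 to 0.83, and limma's adjusted p-values were 0.912, 0.383, 0.801 and 0.723. The wild-type value at 240 min was 0.10 if line 3-1 was left out and 0.57 if line 4-3 was, and the mutant value at 240 min was 0.24 without line 3-2. These comparisons share the uninduced arrays. Wild-type differed from mutant KLU by -0.25 at 90 min (-0.70 to 0.20) and by -0.06 at 240 min (-0.50 to 0.39), with adjusted p-values of 1 and 0.981. From 90 to 240 min the wild-type difference of 0.19 (adjusted p = 0.802) rested on line 3-1, which moved by 0.35 against 0.03 in line 4-3, and the mutant lines moved by -0.04 and 0.03. The interaction was 0.20 (-0.44 to 0.83, adjusted p = 1), and limma called 0% of all probe sets in the interaction, with 603 at an unadjusted p under 0.05.

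In each of the 5 groups the line with the higher GID1C value was also the line with the higher mean of 9 pollen markers. That mean was 5.15 and 4.46 in lines 3-1 and 4-3 at 0 min, 6.39 and 4.82 at 90 min, and 5.63 and 4.79 at 240 min. In mutant lines 3-2 and 1-5 it was 5.48 and 5.01 at 90 min, and 5.03 and 4.98 at 240 min. At 240 min TUA1, AGL30, AGL104, ANX2 and MGH3 were higher in mutant line 3-2, and AGL66, ANX1 and AT59 in line 1-5. The 9 markers are those of 25 listed that have a named probe set. Of these, TUA1 and AGL30 were called with wild-type KLU at 240 min against 0 min, with 1.98 and 1.73. Limma's adjusted p-values were 0.00354 and 0.0125, and 6.82% of all probe sets were called there. The line order without them was not tested. The line order of GID1B matched that of the pollen mean in 4 of 5 groups and that of GID1A in 2 of 5. With A9, GI and COR27, the other markers set against the receptors in this way, the line order of GID1C matched in 3 of 5 groups each. That of GID1B matched in 4 of 5 groups with A9 and in 2 of 5 with GI and with COR27. For GID1A it was 2 of 5 with each of them. Since 4 lines make up the 5 groups, these are not 5 separate agreements. The share of all probe sets whose line order matched the pollen mean in all 5 groups was not counted. The part of pollen content in the GID1C values was not tested.

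**Figure D2:**
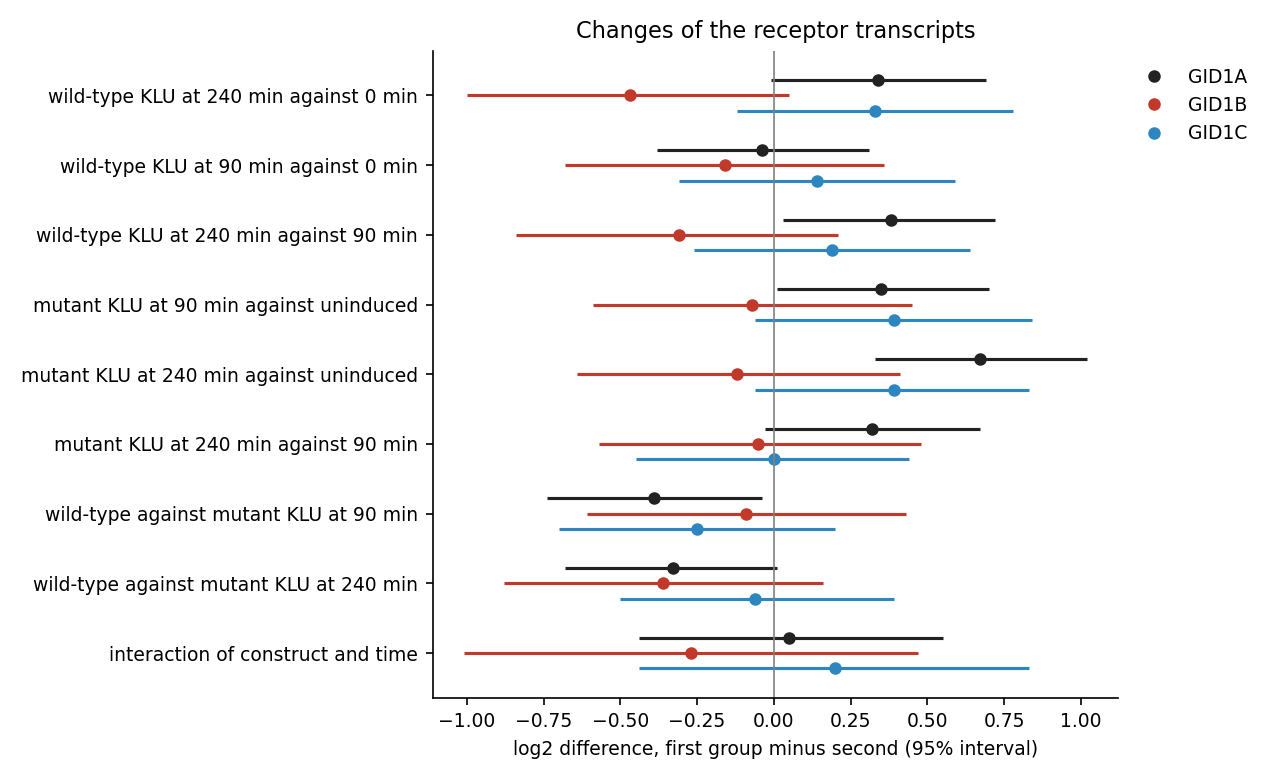
Log2 difference of each receptor in the 9 comparisons, first group minus second, with 95% intervals from limma. The interaction is the difference between constructs at 240 min minus that at 90 min. The intervals of GID1B and GID1C all include 0, and the interval farthest from 0 is that of GID1A for mutant KLU at 240 min against uninduced (0.33 to 1.02).

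With 2 arrays a group, groups that do not overlap are common, and the receptors were read against that background. With wild-type KLU at 240 min against 0 min, all 3 receptors lay apart, GID1A and GID1C higher and GID1B lower, as did 50.0% of all probe sets. At 90 min against 0 min 2 lay apart (34.0% of all), GID1C higher and GID1B lower. From 90 to 240 min with wild-type KLU 2 lay apart (35.2%), GID1A higher and GID1B lower, and with mutant KLU 1 did (27.2%), GID1A, which was higher. With mutant KLU against the uninduced lines GID1A and GID1C lay apart and higher at 90 min (33.4% of all) and at 240 min (37.5%). Wild-type KLU was below mutant KLU without overlap in all 3 receptors at 90 min (27.7% of all) and in GID1A at 240 min (41.1%).

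Because the probe sets have different affinities, their levels cannot be set against each other, but the balance of 2 receptors within an array can be compared between groups. The difference of the log2 values of GID1B and GID1C was 0.70 and 0.62 in lines 3-1 and 4-3 at 0 min, and, with wild-type KLU, 0.28 and 0.44 at 90 min, then -0.32 and 0.03 at 240 min. It was lower at each later time in both lines. With mutant KLU it was 0.30 and 0.10 at 90 min and -0.06 and 0.38 at 240 min in lines 1-5 and 3-2. Against the uninduced lines the mutant values differed by -0.46 at 90 min and -0.50 at 240 min. The 95% intervals were -0.91 to -0.01 and -0.95 to -0.05, and limma's adjusted p-values were 0.745 and 0.556. Between 0 and 240 min with wild-type KLU the balance of GID1B and GID1C fell by 0.81 on the log2 scale (SE 0.191, 95% interval -1.25 to -0.36, adjusted p = 0.0493 in a limma fit that held all probe sets and these differences). This was the 1 of 27 tests of such balances that passed, in the comparison where limma called 6.82% of all probe sets, and it did so narrowly: without any 1 of the 10 arrays the adjusted p was between 0.0508 and 0.223. With the line as a replicate block it was 0.0429.

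The balance of GID1A and GID1B moved by 0.82 in the same comparison (SE 0.219, 95% interval 0.31 to 1.32, adjusted p = 0.07 by limma), from 1.86 and 2.06 at 0 min to 2.58 and 2.97 at 240 min in lines 3-1 and 4-3. With the line as a replicate block the adjusted p was 0.0256. For mutant KLU at 240 min against the uninduced lines that balance differed by 0.79 (adjusted p = 0.313), with 3.02 in line 1-5 and 2.48 in line 3-2. The balance of GID1A and GID1C moved in opposite directions in the wild-type KLU lines, from 2.56 at 0 min to 2.26 at 240 min in line 3-1 and from 2.68 to 3.00 in line 4-3. Its mean difference was 0.01 (-0.57 to 0.59, adjusted p = 0.991). Between wild-type and mutant KLU at 240 min the 3 balances differed by 0.03, -0.28 and -0.31 for GID1A with GID1B, GID1A with GID1C and GID1B with GID1C, with adjusted p-values of 0.995, 0.796 and 0.635. None of these differences between the constructs passed.

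**Figure D3:**
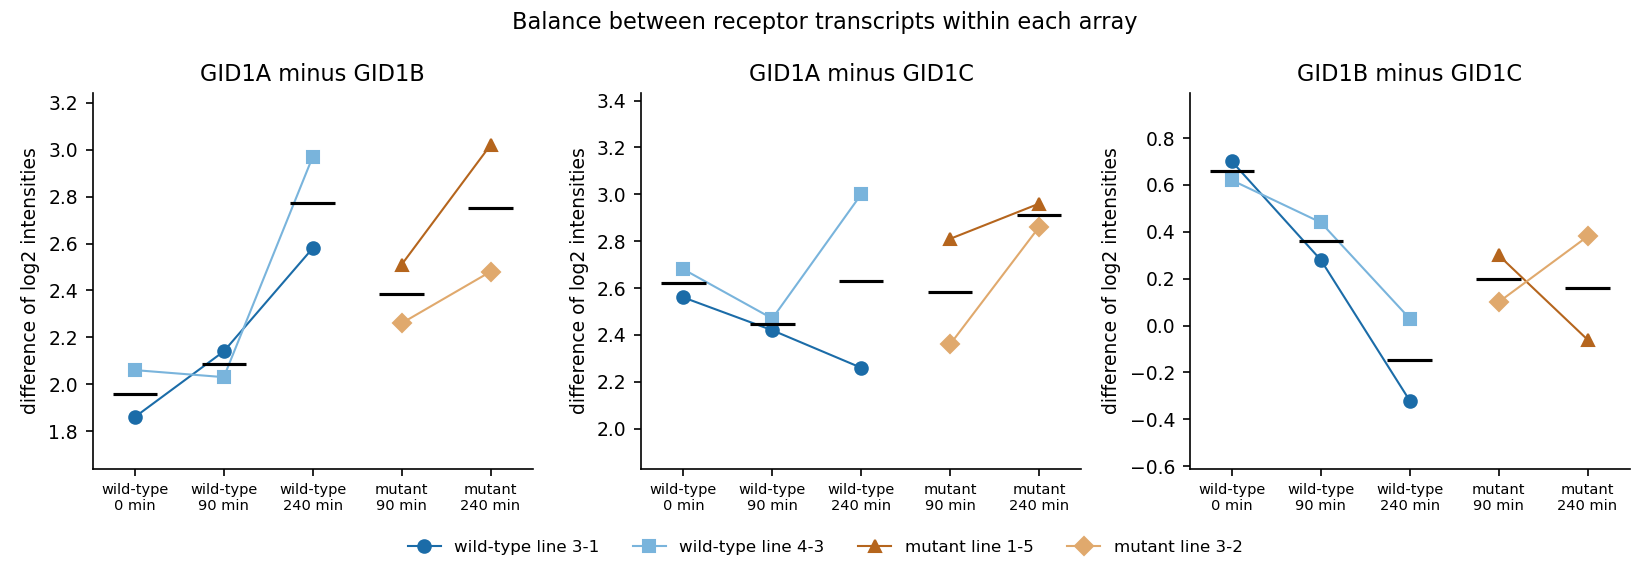
Difference between the log2 intensities of 2 receptors on each array, by construct and time. Points are arrays, coloured lines join arrays of 1 plant line, and black bars are means of 2 arrays. The balance of GID1B and GID1C was 0.70 and 0.62 on the uninduced arrays and -0.32 and 0.03 on the wild-type KLU arrays at 240 min. The values compare groups within a panel, since a level above 0 depends on the probes.

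Of 59 other genes of gibberellin synthesis, inactivation and signalling that were listed, 7 have a named probe set, and none of the enzymes or DELLA proteins is among them. Limma called 0 of these 7 in each of the 9 comparisons. Their median difference with wild-type KLU at 240 min against 0 min was 0.08, beside -0.02 over all probe sets. At an unadjusted p under 0.05, 1 of the 7 was higher with wild-type KLU at 240 than at 90 min and 1 was lower with mutant KLU at 90 min than in the uninduced lines, both of them SEC. Over all probe sets the share under 0.05 in either direction was 10.2% and 6.60% in these comparisons, so 1 of 7 is near the background. SEC and SPY encode sugar transferases that modify DELLA proteins. SEC was 8.33 and 8.36 at 0 min, 8.15 and 7.94 at 90 min and 8.51 and 8.30 at 240 min in lines 3-1 and 4-3, and its difference from 90 to 240 min was 0.36 (SE 0.134, adjusted p = 0.438).

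Downstream of the receptors, the F-box gene SLY1 lay between 7.84 and 8.17 on all arrays, and its largest difference between groups was 0.18, between the constructs at 240 min (adjusted p = 0.74 by limma). Its paralogue SNE, which the gene table calls SLY2, lay between 3.54 and 5.33, and line 4-3 was above line 3-1 at each time. XERICO, a RING protein gene that DELLA proteins are known to raise, was 8.18 and 8.22 at 0 min, and 8.44 and 8.99 in mutant lines 1-5 and 3-2 at 240 min (difference 0.51, adjusted p = 0.732, and 0.24 without line 3-2). The listed target AT1G22690 was 7.01 and 6.82 with mutant and 5.25 and 6.40 with wild-type KLU at 240 min, a difference of -1.09, wild-type minus mutant (SE 0.483, adjusted p = 0.405). It was -0.51 when line 3-1 at 240 min was left out, and that line was already low at 0 min (5.11, against 6.51 in line 4-3), and with wild-type KLU the difference between 0 and 240 min was 0.01. The listed target AT5G50915 was 4.96 and 6.17 at 0 min and 4.36 and 5.15 at 240 min in lines 3-1 and 4-3, a difference of -0.81 (adjusted p = 0.278) that was -0.21 without the 0 min array of line 4-3. As for the receptors, none of these differences passed the test.

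CXE16, CXE18 and CXE20, carboxylesterase genes of the enzyme family from which the receptors derive, are the 3 members of that family with a named probe set among 20 listed. With wild-type KLU at 240 min against 0 min they differed by -0.42, -0.41 and -0.73, and limma's adjusted p-values were 0.278, 0.321 and 0.203. None passed in any comparison.

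Receptor transcripts are known to follow the circadian clock in seedlings, and vapour time and time of day run together here. Of 18 clock genes listed, GI and COR27 have a named probe set. GI, a clock component, was 7.57 and 7.01 at 0 min, 8.56 and 7.85 at 90 min and 8.25 and 8.70 at 240 min in wild-type lines 3-1 and 4-3. In mutant lines 1-5 and 3-2 it was 8.28 and 8.56 at 90 min and 8.83 and 8.79 at 240 min. The uninduced arrays were the lowest of all 10. Its differences from the uninduced lines were 0.92 and 1.18 with wild-type KLU at 90 and 240 min, and 1.13 and 1.52 with mutant KLU, and those of COR27, a gene under clock and cold control, were 1.33, 3.04, 1.43 and 3.94. COR27 was 3.59 and 3.17 at 0 min, and its lines lay far apart at 90 min, with 5.65 and 3.77 in lines 3-1 and 4-3 and 3.78 and 5.84 in lines 1-5 and 3-2. Without 1 array its 90 min difference was between 0.39 and 2.27 for wild-type KLU and between 0.40 and 2.46 for mutant KLU. The adjusted p-values at 240 min, with wild-type and mutant KLU, were 0.0526 and 0.122 for GI and 0.0611 and 0.134 for COR27, so neither passed. GID1A, GI and COR27 each had their highest group mean with mutant KLU at 240 min. At 90 min with wild-type KLU they parted, since GID1A differed by -0.04 from 0 min and GI by 0.92. The line order of GID1A matched that of GI in 2 of 5 groups, and that of COR27 also in 2 of 5. The part of the time of day in the GID1A values was not tested.

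**Figure D4:**
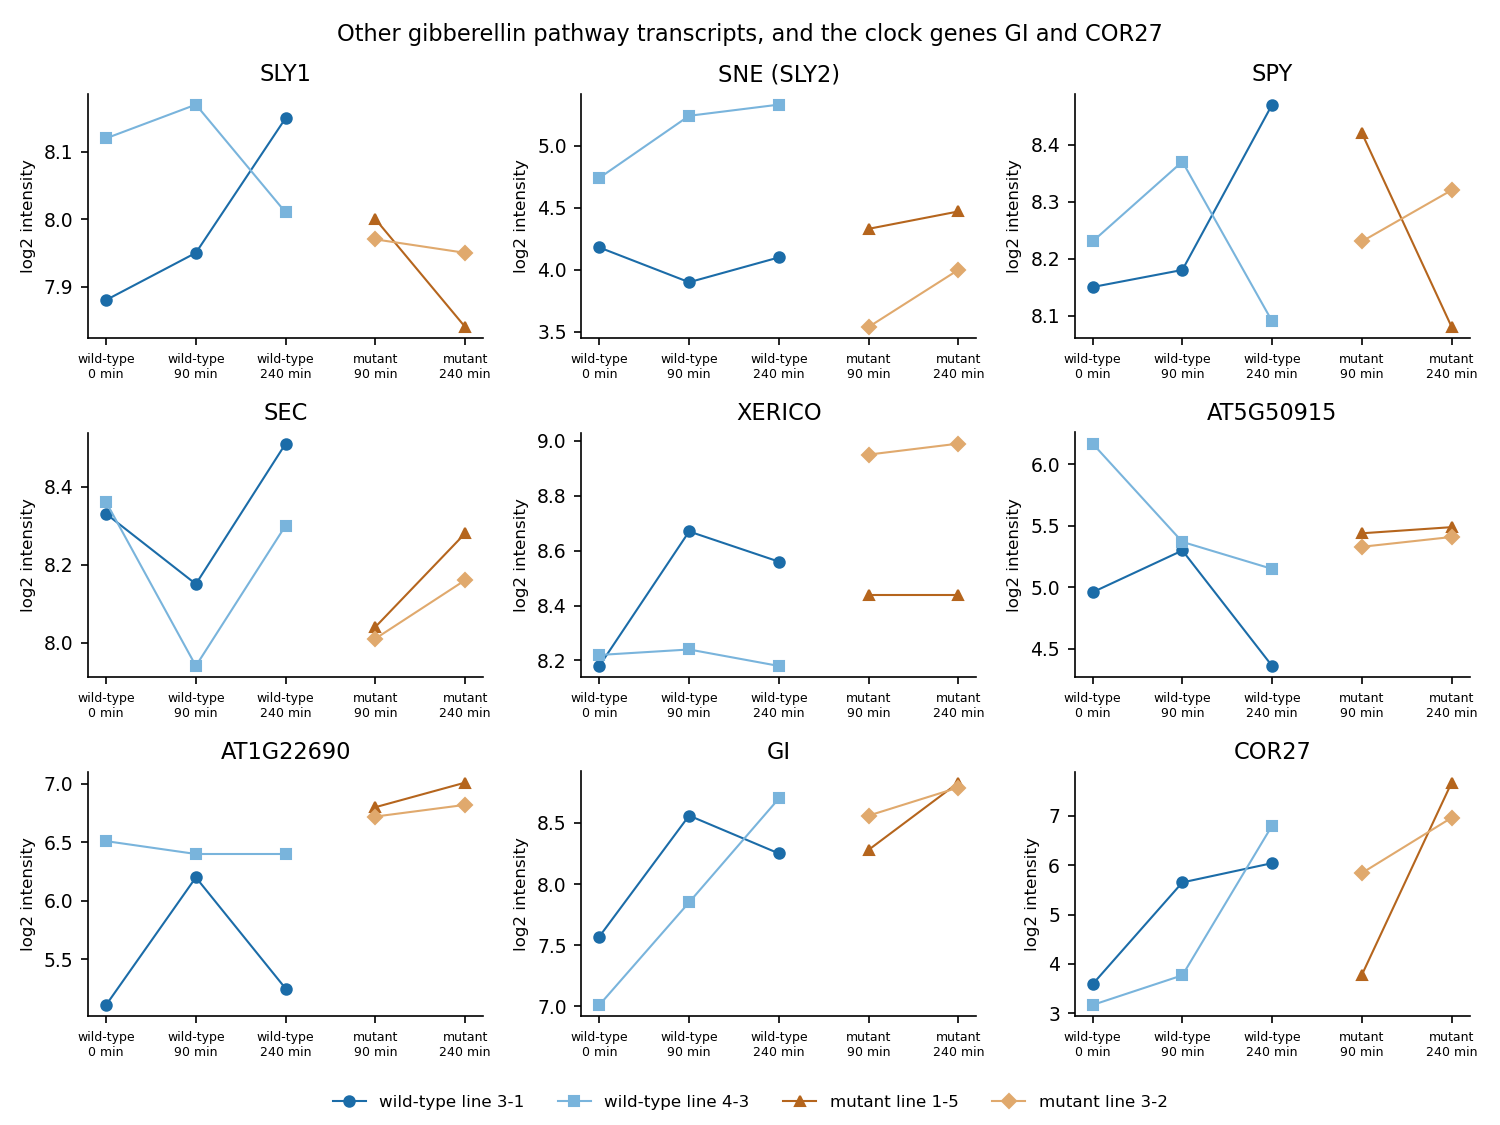
Log2 intensity of 7 other gibberellin pathway genes and of the clock genes GI and COR27 on each array. Points are arrays, coloured lines join arrays of 1 plant line, and each panel has its own vertical range. GI was lowest on the uninduced arrays (7.57 and 7.01), while SLY1 stayed between 7.84 and 8.17.

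The transcripts whose pattern was most like each receptor were found by Pearson correlation over the 10 arrays, among probe sets of 1 gene with a mean above the median and an SD of at least 0.2. The arrays share lines and times, so the coefficients describe these arrays only. For GID1A the nearest of 4096 were AT3G46600 (r = 0.871), AT4G14500 (0.861), AT2G37480 (0.855), AT1G48210 (0.849) and AT1G56220 (0.844). For GID1B the nearest of 4097 were AT1G05710 (0.915), AT3G57880 (0.888), AT5G40250 (0.882), AT1G44224 (0.877) and AT3G15530 (0.869). For GID1C they were bHLH121 (0.953), a transcription factor gene of iron homeostasis, AT5G16650 (0.940), AT3G11100 (0.935), AT1G12250 (0.928) and AT1G24440 (0.924). No gene stood in more than 1 of these lists. Between the receptors, which were not chosen for a high coefficient, r was 0.508 for GID1A and GID1C, 0.114 for GID1B and GID1C and -0.042 for GID1A and GID1B.

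The genes next to each receptor on the chromosome were also read, 5 protein-coding genes to each side in the order of RefSeq assembly TAIR10.1. Named probe sets exist for 6 neighbours of GID1A, 5 of GID1B and 6 of GID1C. Around GID1A and GID1B limma called 0 neighbours in each of the 9 comparisons. Around GID1C, 2 were called, both with wild-type KLU at 240 min against 0 min, where 6.82% of all probe sets were called. AT5G27330, the adjacent gene, rose by 0.63 (adjusted p = 0.0325) but lost its call without 3 of the 4 arrays compared (0.52 to 0.65, adjusted p = 0.111 to 0.175), and the sugar transporter family gene SFP2 fell by 1.75 on the log2 scale (adjusted p = 0.00487, and at most 0.0488 without 1 of these arrays). SFP1, which lies beside SFP2, differed by -0.99 (adjusted p = 0.106), and GID1C itself by 0.33. SFP1 and SFP2 are similar genes, and whether their probe sets read each other's transcripts was not tested.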

How the data were processed

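Total RNA was labelled with biotin and hybridised to ATH1 arrays, per the labels' protocols. The deposited values are log2 intensities made by the authors with RMA, per the submitters' processing notes. Its version is not given in the sources used here. The values were used as deposited. The file holds 22810 probe sets, and without 64 controls 22746 were tested. The gene table names 1 gene for 13513, several for 503 and none for 8730. Genes were named through it and RefSeq (TAIR10.1).

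Groups came from the sample titles. limma 3.58.1 in R 4.3.3 fitted 1 mean per group over all 10 arrays across all probe sets, two-sided, with Benjamini-Hochberg adjustment, and with the differences between receptors as added probe-set rows in a second fit. The fit was checked on simulated data for its estimate of a planted change. Noise there was independent between arrays, so the pairing by line was not simulated. The members and lists were chosen with earlier results of these data known. Named genes are the receptors, called list members, up to 6 list members by role, and the 5 nearest by correlation. The neighbours, the fits of other genes without 1 array and the comparisons over both times or constructs were added after values were seen. Lines are separate transformants, and tissue was pooled.

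The arrays are paired by line, since the titles repeat the lines at each time of a construct. Over all probe sets, the line-to-line difference at one time had a correlation with that at another of 0.633, 0.475 and 0.606 (wild-type KLU) and 0.348 (mutant KLU). The blocked fits took the line as fixed within a construct and as random, with a correlation of 0.271, between constructs. Other alternatives left out each array or every group not compared, kept the brighter probe sets (above the median), set a minimum change of 0.5, used a trended robust prior, or rescaled the arrays by quantiles or medians. Batches could not be tested, since no label gives one. Figures used matplotlib 3.10.9.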

Additional observations from a re-analysis of the deposited data

How the results depend on the processing

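With 2 arrays a group, every value rests on single arrays. Among the alternatives, the fit on the brighter probe sets held GID1A alone of the receptors. The minimum change, the trended robust prior and the replicate block alter only the spread or the test, so no direction could turn there. For the 3 receptors, 487 of 504 alternative values kept their direction and stayed short of the threshold, and 17 turned direction, each of them when 1 array was left out and none past the threshold. Over those fits the values ranged from -0.08 to 0.02 for GID1A with wild-type KLU at 90 against 0 min, from -0.04 to 0.43 for GID1C with wild-type KLU at 240 against 90 min, and from -0.15 to 0.02 and -0.48 to 0.26 for GID1B with mutant KLU at 90 and 240 min against the uninduced lines. Between 90 and 240 min with mutant KLU they ranged from -0.41 to 0.33 for GID1B and from -0.15 to 0.15 for GID1C. Between the constructs at 240 min they ranged from -0.73 to 0.01 for GID1B and from -0.29 to 0.18 for GID1C. GID1A kept its direction, from 0.24 to 0.51 and 0.21 to 0.43 between 90 and 240 min with wild-type and mutant KLU and from -0.47 to -0.20 between the constructs at 240 min. The interaction ranged from -0.08 to 0.19, -0.64 to 0.10 and -0.04 to 0.43 for GID1A, GID1B and GID1C, and the difference of times over both constructs from -0.36 to 0.01 for GID1B and from -0.02 to 0.21 for GID1C.

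Of the balances between receptors, that of GID1B and GID1C with wild-type KLU at 240 against 0 min lost its call without any 1 of the 10 arrays (-0.98 to -0.63), while it kept it with the replicate block. The block brought that of GID1A and GID1B past the threshold at the same value of 0.82 (limma's adjusted p = 0.0256) and changed no other call on a receptor or balance. In fits without 1 array, the balance of GID1A and GID1C ranged from -0.36 to 0.38 in that comparison, from -0.19 to 0.55 for wild-type KLU at 240 against 90 min, from -0.26 to 0.19 for mutant KLU at 90 min against uninduced, from -0.36 to 0.09 and -0.65 to 0.09 between constructs at 90 and 240 min, and from -0.51 to 0.23 in the interaction. That of GID1B and GID1C ranged from -0.26 to 0.18 for mutant KLU at 240 against 90 min, and that of GID1A and GID1B from -0.24 to 0.29 between constructs at 240 min. The cause of these turns was not tested.

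The number of probe sets called, the background for the receptors, moved more. With wild-type KLU at 240 against 0 min it was 1551 and ranged from 231 to 2689 under other settings and from 176 to 1545 without 1 array. At 90 against 0 min it was 369 (29 to 778, and 4 to 266), for mutant KLU against uninduced 9 (0 to 22, and 0 to 5) at 90 min and 35 (10 to 47, and 0 to 27) at 240 min, and between constructs 1 (0 to 13, and 0 to 48) and 258 (0 to 304, and 4 to 219).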
